A study of Mus musculus with 115 samples.

Results

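Libraries rich and poor in Tgm4 mRNA were compared among (TRAMP x WSB/EiJ) F2 prostates with little Chga mRNA. Levels are given in TPM, a measure scaled for transcript length and for the total of each library. In 73 libraries of the series Chga, the chromogranin stored in neuroendocrine granules, was under 1 TPM, and in the other 42 it was higher. These 73 were ranked by their Tgm4 TPM. The 24 highest are called Tgm4-rich here and the 24 lowest Tgm4-poor, and the 25 between them are called the middle libraries. Each library was made from total RNA of bulk F2 prostate tissue, labelled as prostate tumor tissue and transgene positive. All mice of the study therefore carried the TRAMP transgene, in which the minimal probasin promoter drives a viral T antigen in prostate epithelium, on a background that mixes C57BL/6 with the wild-derived strain WSB/EiJ. The labels place all libraries in 1 group, so Tgm4-rich and Tgm4-poor are sides chosen by a measured level and are not treatments, and every p-value below describes how a gene varied along with that choice. The mice were kept to one set endpoint age or to earlier humane endpoints, and neither the age nor the tumor burden nor the genotype of a mouse entered the comparison. The study's methods state that RNA of small prostates came from the ventral prostate, and which libraries those were was not known here.

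The mouse prostate is built of anterior, dorsal, lateral and ventral lobes, and the luminal cells of each lobe secrete a different mixture of proteins. Tgm4 is the prostate transglutaminase, which the anterior and dorsal lobes release to cross-link seminal vesicle proteins into the copulatory plug. Cells that secrete this much protein depend on chaperones and disulfide isomerases of the endoplasmic reticulum (ER), whose genes are induced together in the unfolded protein response.

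Tgm4 (chromosome 9, 123034726 to 123067561, GRCm38) was listed at 9820 to 16895 TPM in the Tgm4-rich libraries, with a median of 11330.5. In the Tgm4-poor libraries the lowest value was 0.64, the median 506 and the highest 4666 TPM. These values chose the sides, so they do not overlap by construction and were not tested. The poor side was wide, since 6 of its libraries were under 100 TPM of Tgm4 and 9 were over 1000. The last library inside the poor side had 4666 TPM and the first outside it 5199, while the last inside the rich side had 9820 TPM and the first outside it 9784, so neither border fell in a gap. Chga ran from 0.09 to 0.70 TPM on the rich side, with a median of 0.28, and from 0.06 to 0.81 on the poor side, with a median of 0.24. The library just past the Chga limit had 1.15 TPM. Among the 42 libraries with more Chga, 34 had under 100 TPM of Tgm4 and 0 reached the level of the lowest Tgm4-rich library.

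The start of Tgm4 and that of the gene most like it, 9530053A07Rik, are shown because their mRNAs moved together most closely. The RefSeq table gives the bases upstream of each start on GRCm38.p6, both genes on the plus strand, Tgm4 at chr9:123034491-123034725 and 9530053A07Rik at chr7:28129216-28129465. Capitals mark the letters TATAAA, searched on both strands.
Tgm4: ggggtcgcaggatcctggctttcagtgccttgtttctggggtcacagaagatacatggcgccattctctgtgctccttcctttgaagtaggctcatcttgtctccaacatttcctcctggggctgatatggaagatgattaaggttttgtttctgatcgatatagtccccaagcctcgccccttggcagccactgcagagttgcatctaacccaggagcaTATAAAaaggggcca
9530053A07Rik: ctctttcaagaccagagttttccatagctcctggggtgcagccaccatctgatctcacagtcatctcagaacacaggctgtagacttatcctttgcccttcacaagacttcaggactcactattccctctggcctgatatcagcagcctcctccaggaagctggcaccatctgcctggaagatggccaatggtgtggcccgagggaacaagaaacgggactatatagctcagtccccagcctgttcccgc
The letters stood once in the Tgm4 window and 0 times in that of 9530053A07Rik, and 14.3% of the 27025 genes with a window of 250 bases held them. Exons of Tgm4 share 830 bases with the opposite-strand gene Zdhhc3, and nothing in the labels says that strand was kept.

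Among the Tgm4-poor libraries, 2 stood apart from the tissue named on their labels. Hoxb13, the homeobox gene that marks prostate epithelium, was at 0.05 TPM in library W1118 and 0.02 in W1154, against 8.04 to 138 TPM in the other 22 poor libraries and 50.8 to 95.8 in the rich ones. W1118 held 574 TPM of Alb, which encodes serum albumin, and W1154 held 239393 TPM of Mucl2 and 18771 of Pip, where the rich libraries reached at most 0.77, 5.94 and 0.40. These 3 genes were chosen after their values were seen. The keratins Krt8 and Krt18 were at 466 and 641 TPM in W1118 and at 110 and 201 in W1154. W1118 was also the only one of the 73 libraries on the smaller side of the first principal component, where 35 of the 42 libraries with more Chga lay, and it had the highest summed neuroendocrine and proliferation levels of the 73, at 68.2 and 1545 TPM. The limma calls between the sides and the medians of the lists were also computed without W1118 and W1154, an alternative chosen after seeing the data. Other counts below, such as those of libraries, of genes without overlap and of upstream elements, include both. Over the whole genome, the number of genes at 1 TPM or more was 12111 ± 751 (SD, n = 24) in the rich and 13223 ± 1190 (SD, n = 24) in the poor libraries (two-sided permutation test, p = 0.00028), so fewer genes were detected where Tgm4 was high. The 20 genes with the largest share held 67.3% ± 4.40 and 65.2% ± 7.75 of the TPM (SD, n = 24 each, permutation test, p = 0.247).

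**Figure D1:**
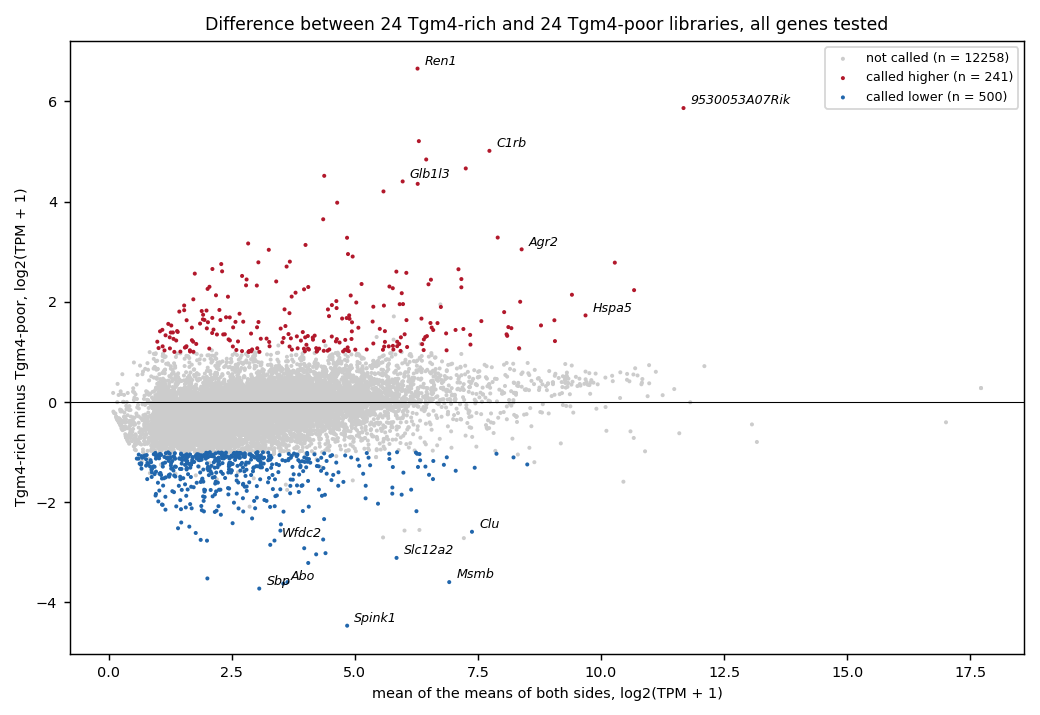
Difference between the 24 Tgm4-rich and 24 Tgm4-poor libraries (vertical axis, log2(TPM + 1)) against the mean level of both sides (horizontal axis, log2(TPM + 1)) for the 12999 genes tested. Red points are the 241 genes called higher and blue points the 500 called lower; Ren1 lies highest at 6.66 and Spink1 lowest at -4.46.

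Levels were compared on the log2(TPM + 1) scale, on which differences of low genes are understated, for 12999 autosomal genes whose mean over the 73 libraries was 1 TPM or higher. With limma and Benjamini-Hochberg adjustment, a gene was called at an adjusted p under 0.05 and a difference of at least 1. On this rule 241 genes (1.85%) were higher and 500 (3.85%) lower in the Tgm4-rich libraries. Among them, 58 were higher by 2 or more and 52 lower by 2 or more. Without W1118 and W1154 the counts were 216 and 536, of which 211 and 450 were also called with them. The median difference of all genes tested was -0.14, and after median-of-ratios scaling it was -0.01, where 340 genes were higher and 383 lower. The share of calls that were higher was thus 32.5% on the deposited scale and 47.03% on the other. In 47 genes (0.362%) every rich library lay above every poor one, and in 0 genes every rich library lay below. Both counts include W1118 and W1154, at 0.10 and 0.04 TPM of Msmb, and were not computed without them. Fewer cells of a type and less RNA per cell cannot be told apart in these bulk samples.

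Of the 2 listed secreted products of the anterior and dorsal lobes, Tgm4 chose the sides and 9530053A07Rik was higher on the rich side. 9530053A07Rik, which encodes a relative of the mucus protein Fcgbp (chromosome 7, 28129466 to 28164811), was listed at 19405 to 33972 TPM in the Tgm4-rich libraries, with a median of 23039, and at 1.58 to 12383 in the poor ones, with a median of 556. All 24 poor libraries were under the lowest rich one, and the difference was 5.87 ± 0.72 (SE, n = 24 and 24, limma adjusted p = 5.1e-09), or 5.27 without W1118 and W1154. Over the 73 libraries its Spearman rho with Tgm4 was 0.964, the highest of all genes tested, followed by Man1a at 0.961, C1rb at 0.960, Atp12a at 0.956 and Gsdma at 0.955. These correlations are descriptions, since the libraries share their scaling and the extremes were chosen by Tgm4. Man1a, a mannosidase that trims N-glycans, ran from 263 to 472 TPM on the rich side and from 12.6 to 169 on the poor side. Atp12a, the catalytic subunit of a proton and potassium pump, ran from 58.99 to 133 against 0 to 54 TPM, and 557 of its exonic bases overlap an antisense gene. Gsdma, a gasdermin, ran from 153 to 312 against 0.56 to 108.7 TPM. None of these 3 genes overlapped between the sides, but they were picked for their rank correlation with Tgm4, so this is no separate result.

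Complement proteases were among the largest differences. C1rb was listed at 991 to 1784 TPM in the rich libraries, with a median of 1159, and at 0.34 to 496 in the poor ones, with a median of 38.96, and the sides did not overlap. C1s2 was listed at 200 to 878 TPM, median 446, against 0.71 to 228, median 10.01, and 1 poor library lay within the rich range. The differences were 5.01 ± 0.57 for C1rb and 4.84 ± 0.49 for C1s2 (SE, limma adjusted p = 9.3e-10 and 3e-11). Each has a near-identical neighbour on chromosome 6, since a C1rb transcript matches C1ra at 97.9% and a C1s2 transcript matches C1s1 at 95.95% of bases, so RSEM may have split shared reads between copies. C1ra itself had medians of 12.1 and 10.1 TPM and a difference of 0.15 ± 0.18 (limma adjusted p = 0.51), and C1s1 was higher by 1.46 ± 0.18 (limma adjusted p = 8.3e-09). These neighbours were named after their values were seen.

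Ren1, which encodes renin, had the largest difference of all genes at 6.66 ± 0.75 (SE, limma adjusted p = 6.5e-10, 6.47 without W1118 and W1154). It was listed at 3.75 to 4402 TPM in the rich libraries, with a median of 1230, and at 0.32 to 911 in the poor ones, with a median of 1.24, so the sides overlapped. Ren1 was uneven within each side. All 15 poor libraries with under 1000 TPM of Tgm4 had under 10 TPM of Ren1, whereas 5 of the 24 poor libraries were over 100 TPM. On the rich side 21 of 24 libraries were over 100 TPM, and W4471 at 3.75, W4429 at 39.9 and W4363 at 59.3 were low although their Tgm4 was at 10951, 11111 and 12261 TPM. The middle libraries had a median of 877 TPM.

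**Figure D2:**
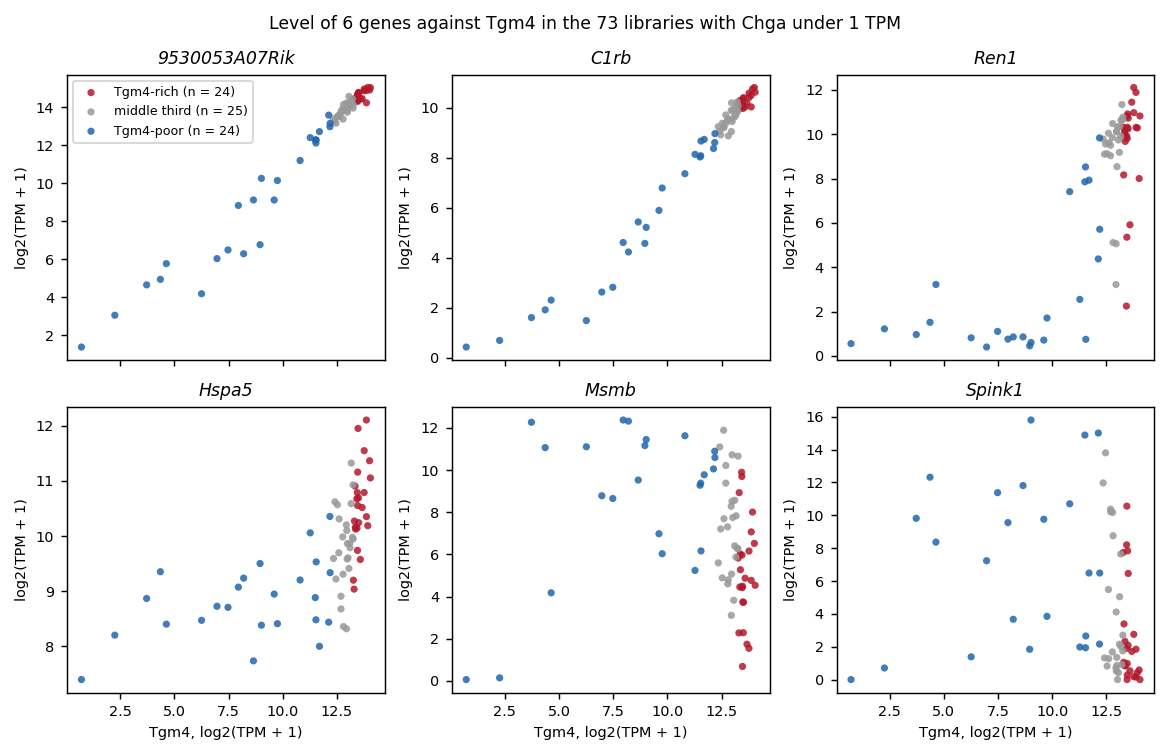
Level of 6 genes (vertical axes, log2(TPM + 1)) against Tgm4 (horizontal axes, log2(TPM + 1)) in the 73 libraries with Chga under 1 TPM; each point is 1 library, red Tgm4-rich, grey middle and blue Tgm4-poor. 9530053A07Rik and C1rb follow Tgm4 over its whole range, and Ren1 is under 10 TPM in 17 poor libraries and over 100 TPM in 21 rich ones. Spink1 reaches 57154 TPM on the poor and 1509 on the rich side. Msmb runs from 17.1 to 5321 TPM in the poor libraries other than W1118 and W1154, and from 0.60 to 953 in the rich ones.

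Other coding genes with large positive differences covered several kinds of product. Fgl1, a fibrinogen-like secreted protein, had medians of 353.1 and 12.3 TPM, Glb1l3, a beta-galactosidase relative, 277 and 8.51, and the brain-type metallothionein gene Mt3 91.5 and 3.88. Their differences were 4.35, 4.40 and 3.98, and their sides did not overlap. Mcoln2, an endolysosomal cation channel, had medians of 43.8 and 3.50 TPM and also no overlap. Ms4a5, with medians of 97.9 and 1.29 TPM, and Pnliprp1, a pancreatic lipase relative, with 61.3 and 3.47, overlapped between the sides. Outside the naming rule, the lincRNA Gm37223 (chromosome 1, 184358329 to 184394271) had medians of 469 and 11.4 TPM and a difference of 5.21 ± 0.59 (limma adjusted p = 7.9e-10), and 9530003J23Rik, a lysozyme-like gene, 802 and 55.2 TPM. Gm5615 had medians of 746 and 172 TPM. These 3 genes were named after their values were seen.

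The middle libraries entered neither side, so the same genes could be followed in samples that the contrast did not use. There, 29 genes (0.223%) rose with Tgm4 and 0 (0%) fell (limma slope, Benjamini-Hochberg adjusted p under 0.05), and at an unadjusted p under 0.05 the counts were 396 and 454. Of the 241 genes called higher, 234 had a slope above 0 and 28 rose, while 46.6% of all genes had a slope above 0. Of the 500 genes called lower, 450 had a slope below 0. 9530053A07Rik had a slope of 1.16 ± 0.19 per log2 unit of Tgm4 (SE, n = 25, limma adjusted p = 0.0083), Glb1l3 1.28 and Mcoln2 1.33 at the same adjusted p, and Man1a 0.77 (limma adjusted p = 0.043). Ren1 had a slope of 0.99 ± 1.37 (limma adjusted p = 1) and was not called there. The adjusted calls depended on scaling, since 0 genes rose and 0 fell by limma after median-of-ratios scaling, where 862 rose and 937 fell at an unadjusted p under 0.05. There 235 of the 241 slopes were above 0, as were 7080 of the 12999 over all genes.

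Genes of ER folding and the unfolded protein response were higher in Tgm4-rich libraries. Of 30 listed, 27 were tested, 18 were called higher, 0 lower and 9 were not called, and their median difference was 1.32 against -0.14 over all genes. Without W1118 and W1154 the count was also 18, with a median of 1.2. With a slope on Tgm4 over all 73 libraries, scaled to the distance between the sides, 9 were called, with a median of 0.87. The list summed to 4445 to 18014 TPM in the rich libraries, with a median of 9105, and to 1176 to 7503 in the poor ones, with a median of 3279, so the sums overlapped.

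Among the chaperones, Hspa5, the main Hsp70 of the ER, was listed at 524 to 4410 TPM on the rich side, with a median of 1484, and at 167 to 1310 on the poor side, with a median of 444. Its difference was 1.73 ± 0.21 (SE, limma adjusted p = 2.8e-09). Hsp90b1 had medians of 692 and 260 TPM, Hyou1 177 and 63.5, and the lectin chaperone gene Calr 814 and 373, all called, whereas Canx, the membrane-bound relative of Calr, had 232 and 185 and a difference of 0.50 ± 0.13 that fell short of the size required. Among the disulfide isomerases, Agr2, which helps fold mucins, was listed at 498 to 1487 TPM with a median of 973, against 0.28 to 474 with a median of 207, with no overlap and a difference of 3.05 ± 0.42 (limma adjusted p = 7.6e-08, 2.54 without W1118 and W1154). Pdia4 and Pdia6 were higher by 1.79 and 1.63, and Pdia3 and P4hb differed by 0.96 and 0.64 without reaching the size required. The secreted ER factors Creld2, Sdf2l1 and Manf were higher by 2.65 ± 0.26, 1.90 ± 0.19 and 1.496 ± 0.15 (SE). Creld2 was uneven, at 73.2 to 1284 TPM in the rich and 14.6 to 257 in the poor libraries.

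The sensors and factors of the response did not move alike. Atf6, the sensor that is cut to release a transcription factor, was higher by 1.33 ± 0.12 (limma adjusted p = 9.7e-13), with medians of 27.9 and 10.3 TPM. Xbp1 had medians of 86.4 and 101.1 TPM and a difference of -0.04 ± 0.14 (limma adjusted p = 0.85). Ern1 and Eif2ak3, the kinase sensors, differed by 0.43 and 0.53, and Atf4 by 0.98, all short of the size required. Ddit3, the proapoptotic factor downstream of Atf4, was higher by 1.02 ± 0.24 (limma adjusted p = 0.00056), the smallest difference called in the list. Herpud1, Sel1l and Syvn1, parts of the machinery that sends misfolded ER proteins to the proteasome, were higher by 1.46, 1.16 and 1.32.

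**Figure D3:**
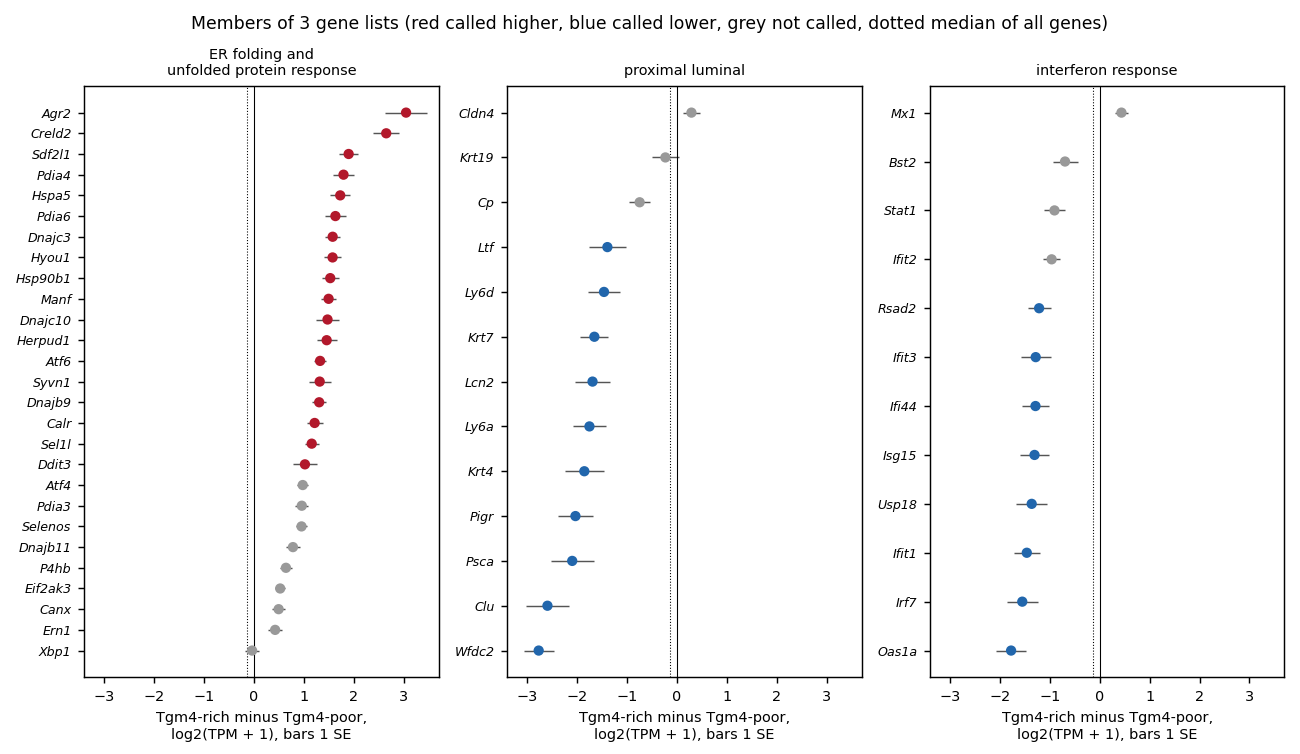
Difference between Tgm4-rich and Tgm4-poor libraries (horizontal axes, log2(TPM + 1), bars 1 SE, 24 libraries a side) for tested members of 3 lists, with 1 proximal luminal gene not drawn. Red marks genes called higher (18 of 27 ER folding genes), blue genes called lower (10 of 13 proximal luminal genes drawn and 8 of 12 interferon genes), grey genes not called, and the dotted line the median of all genes at -0.14.

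Several of these genes share a known element upstream of their starts. The ER stress response element (ERSE), bound by NF-Y and Atf6, was searched as CCAAT, then 9 bases of any kind, then CCACG on both strands of the 250 bases upstream of each RefSeq start. It was found in 7 of 15 ER folding genes called higher that had a window, in 1 of 9 not called, and in 0.13% of the 27025 genes with a window. Among all 163 genes called higher that had a window, 8 held it, and the gene outside the list was Derl3, an ER degradation factor higher by 2.36 ± 0.26 (limma adjusted p = 4.9e-10, named after its values were seen). Of the 337 genes called lower with a window, 0 held it. The windows are shown for 4 genes called higher and for Canx, which was not called, with the fixed letters in capitals and 20 bases on each side. They are written in the direction of the gene on GRCm38.p6, at chr12:17266471-17266529 (plus strand) for Pdia6, chr14:118937807-118937865 (plus) for Dnajc3, chr19:6046512-6046570 (plus) for Syvn1, chr15:88819500-88819558 (plus) for Creld2 and chr11:50325780-50325838 (minus) for Canx, and in Creld2 the element reads as its reverse complement.
Pdia6: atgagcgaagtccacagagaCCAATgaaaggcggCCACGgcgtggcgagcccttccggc
Dnajc3: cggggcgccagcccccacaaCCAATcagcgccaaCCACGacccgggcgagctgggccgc
Syvn1: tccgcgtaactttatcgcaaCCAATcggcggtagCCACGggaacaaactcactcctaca
Creld2: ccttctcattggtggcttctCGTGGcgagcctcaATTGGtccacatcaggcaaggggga
Canx: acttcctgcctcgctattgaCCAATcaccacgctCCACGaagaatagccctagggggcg
A match describes the letters in these windows and says nothing of binding in these libraries. The list holds genes of the unfolded protein response, so its share above that of all genes is no separate result. Canx held the full letters and was not called, while Pdia4, which was called, had no match in its window.

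Of 31 tested genes of ER translocation and vesicle coats, which bring proteins into the ER and carry them onward, 2 were called higher, 0 lower and 29 were not called, with a median of 0.49, and 5 were higher after median-of-ratios scaling or with the highest and lowest 18 libraries. The called genes were Tmed3, a cargo receptor of transport vesicles (1.32 ± 0.19), and Srp54a, of the signal recognition particle (1.21 ± 0.18), whose transcript matches Srp54b over its full length. Sec61b, a subunit of the translocation channel, had medians of 392 and 232 TPM and a difference of 0.76. Of 17 tested O-glycosylation and Golgi genes, 2 were higher and 2 lower, with a median of 0.01. The fucosyltransferase genes Fut8 and Fut2 were higher by 1.73 and 1.05, and Galnt3 and B3gnt3 were lower, at -1.47 and -1.06. Without W1118 and W1154 this list had 1 higher and 2 lower, and after median-of-ratios scaling 2 higher and 1 lower. Of 15 tested genes for zinc, citrate and metallothioneins, 4 were higher and 1 lower. Mt1 had medians of 1402 and 300 TPM and Mt2 346 and 113.4, with differences of 2.14 and 1.62, and 432 of the 588 exonic bases of Mt2 overlap an antisense gene. The zinc exporter genes Slc30a2 and Slc30a4 went opposite ways, at 2.25 and -1.07, the latter not called after median-of-ratios scaling, where this list had 0 lower.

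Secreted products on the ventral list were higher in some of the libraries poor in Tgm4. Spink1, a secreted trypsin inhibitor, was listed at 0 to 57154 TPM in the poor libraries, with a median of 119, and at 0 to 1509 in the rich ones, with a median of 1.68. The difference was -4.46 ± 1.15 (SE, limma adjusted p = 0.0016, -5.08 without W1118 and W1154). Sbp, the spermine binding protein of the ventral lobe, ranged from 0 to 92090 TPM in the poor libraries around a median of only 1.09, and from 0.04 to 408 in the rich ones around 0.55. Its difference was -3.72 ± 1.18 (limma adjusted p = 0.0097), with 7 poor libraries above the highest rich one, 6 of them over 1000 TPM. Both tested genes of the ventral list, Spink1 and Sbp, were thus lower on the rich side, but Sbp was not called with Chga under 0.5 TPM (-1.93), and neither was called with the slope over all 73 libraries (-2.03 for Spink1 and -1.69 for Sbp). Spink1 was also high in libraries rich in seminal vesicle mRNAs, since 3 of the 7 poor, 3 of the 5 middle and the 1 rich library over 1000 TPM had a summed seminal vesicle level over 10000 TPM. In W4434, for example, Spink1 was at 2668 TPM, Sbp listed at 0 and the seminal vesicle sum at 173260. With that sum as a covariate the difference of Spink1 was -3.27 (limma adjusted p = 0.012), and its part otherwise was not tested. In library W5005 Sbp was at 92090 and Spink1 at 57154 TPM, and in W5000 at 46295 and 33022, the latter with 4458 TPM of Tgm4 still present. These 2 libraries also had the lowest Mki67 and Mcm6 of the poor side, with 0.39 TPM of Mki67 in each and 1.16 and 0.78 of Mcm6. That was not particular to libraries high in Sbp. The middle libraries W5002 and W5004, with labels of the same run, had 0.96 and 1.35 TPM of Mcm6. Their Mki67 was at 0.63 and 0.93 TPM and their Sbp at only 7.61 and 29.3. What these labels share was not tested. Sbpl, the neighbour of Sbp, was also lower on the rich side, at -2.75 ± 0.92 (limma adjusted p = 0.014).

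Msmb, a secreted beta-microseminoprotein, was spread over more of the poor libraries. It was listed at 0.04 to 5321 TPM, with a median of 807, against 0.60 to 953 with a median of 27.2 in the rich libraries, and the difference was -3.59 ± 0.84 (limma adjusted p = 0.00059, -4.38 without W1118 and W1154). It was over 1000 TPM in 11 poor, 5 middle and 0 rich libraries. At least 1 of Msmb, Sbp and Spink1 was over 1000 TPM in 14 poor, 9 middle and 1 rich libraries, and Msmb or Sbp in 12, 7 and 0. Of the 19 tested genes of other prostate secretory and androgen-regulated products, 2 were higher and 5 lower, with a median of -0.79, and 8 were lower without W1118 and W1154. The androgen-regulated genes did not share a direction, since Tmprss2 was higher by 1.11 ± 0.14 and Azgp1 by 1.35 ± 0.38, while Fkbp5 was lower, at -1.58 ± 0.21 (limma adjusted p = 1.4e-08, 0.0038 and 2.9e-08). Defb50, a beta-defensin gene, had medians of 825 and 4669 TPM and was not called (-1.59 ± 0.73, limma adjusted p = 0.073), but was called without W1118 and W1154 (-2.56, limma adjusted p = 1.5e-07).

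**Figure D4:**
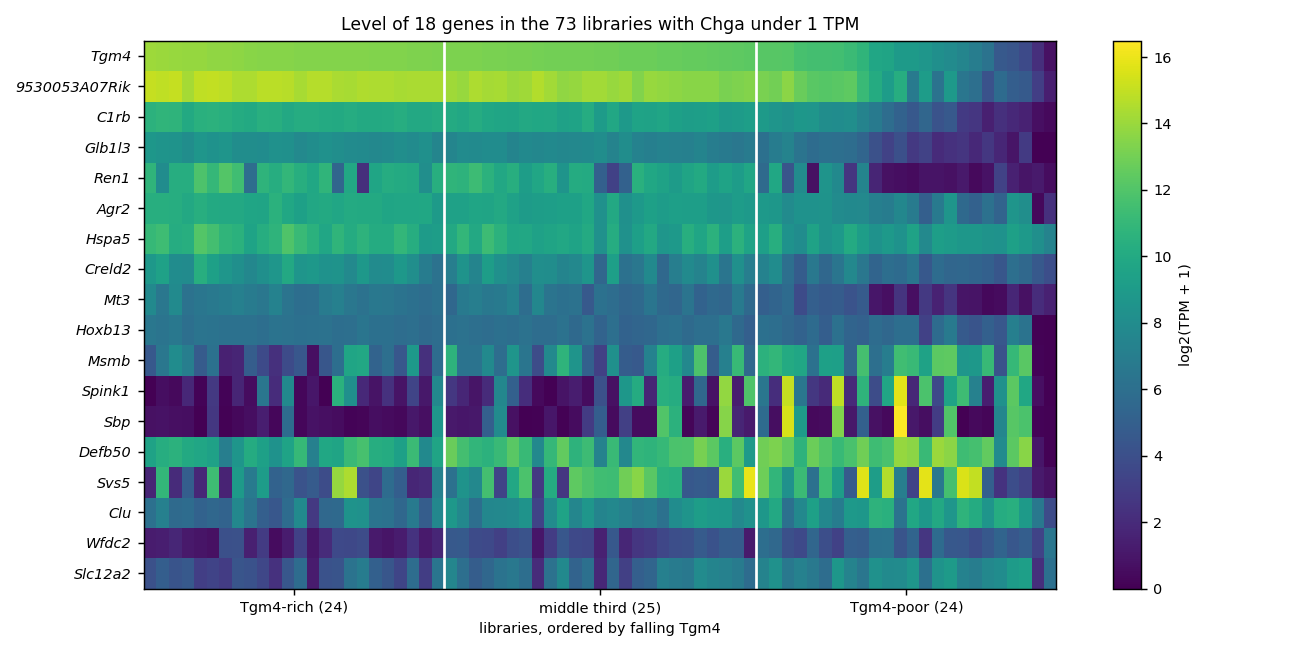
Level of 18 genes (rows, colour in log2(TPM + 1)) in the 73 libraries with Chga under 1 TPM (columns, ordered by falling Tgm4, white lines between the 24 Tgm4-rich, 25 middle and 24 Tgm4-poor libraries). Msmb, Spink1, Sbp and Svs5 are high in some libraries of the poor side and low in others, and the 2 rightmost columns are W1118 and W1154, at or under 1 TPM for Hoxb13 and Msmb.

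Seminal vesicle products were not called but were high in some libraries of both sides. Of 8 tested genes 0 were higher and 0 lower by limma, but 4 were lower without W1118 and W1154, 4 without the rich library W7822 (Svs2, Svs4, Svs5 and Pate4) and 6 with the smooth muscle covariate. The summed level ran from 7.50 to 51557 TPM in the rich libraries, with a median of 85.9, and from 1.92 to 173260 in the poor ones, with a median of 1433. It was over 10000 TPM in 2 rich, 6 middle and 6 poor libraries, and its part in the other results was addressed by a covariate, with which 260 genes were higher and 574 lower.

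Genes of proximal luminal cells, the stem-like cells near the urethra that express Psca and Krt4, were lower where Tgm4 was rich. Of 14 tested, 0 were higher, 11 were lower and 3 were not called, with a median of -1.68, and the count was also 11 without W1118 and W1154. With the slope over all 73 libraries 6 were lower, with a median of -0.88. Wfdc2, a secreted protease inhibitor relative, was listed at 0.47 to 15.9 TPM in the rich libraries, median 1.72, and at 5.08 to 86.1 in the poor ones, median 25.7, a difference of -2.77 ± 0.30 (limma adjusted p = 2.9e-10). The poor side was higher in 17 of 24 libraries than any rich one. Clu, which encodes the chaperone clusterin, had medians of 55.8 and 452 TPM and a difference of -2.59 ± 0.43, and Psca 3.41 and 25.2 with -2.09 ± 0.43. The immunoglobulin transporter gene Pigr had medians of 18.6 and 83.5 TPM, and Ly6a, which encodes the stem cell antigen Sca-1, 32.3 and 140. Cldn4, Krt19 and Cp were not called.

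The remaining genes with the most negative differences included transporters and enzymes. Slc12a2, the sodium, potassium and chloride cotransporter of secretory epithelia, was listed at 1.41 to 120 TPM in the rich and 3.58 to 626 in the poor libraries, with medians of 18.6 and 184. Papss2, which makes the sulfate donor, had medians of 4.13 and 62.7 TPM, Lrrc26, a potassium channel subunit, 5.90 and 62.3, and Cldn10, a tight junction claudin, 0.33 and 9.17. Abo, the blood group glycosyltransferase gene, had medians of 1.78 and 41.2 TPM. Their differences lay between -3.62 and -2.77, and each overlapped between the sides, with 7 to 17 poor libraries above all rich ones. Cyp2f2, a cytochrome gene, was lower at -2.74 ± 0.38, and Spink5, a protease inhibitor gene, at -2.61 ± 0.60. 5430419D17Rik was lower at -3.60 ± 0.77 (named after its values were seen).

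Transcription factors of luminal cells were mixed. Ehf had medians of 236 and 133 TPM and was higher by 1.15 ± 0.14 (limma adjusted p = 9.2e-09) and by 1.00 without W1118 and W1154, and Gata3 and Hoxb13, higher by 1.03 and 1.11, fell to 0.70 and 0.65 and were no longer called. Klf5 and Elf3 were lower, at -1.44 and -1.11, Elf3 falling short of the size required without the 2 libraries at -0.99. The list had 4 higher and 2 lower of 18 tested, and 2 and 2 without W1118 and W1154. Without those libraries the 2 lower genes included a member other than Klf5 and Elf3. Of 8 posterior Hox genes tested, Hoxb9 (1.60 ± 0.17) and Hoxb13 were higher, and 0 were lower. Of 3 tested transglutaminase family members other than Tgm4, 0 were called, with Tgm2 at medians of 21.4 and 40.2 TPM, and of 10 polyamine genes and 6 steroid receptor and reductase genes 0 were called in either direction by limma, although Srm had a difference of 0.72 ± 0.10 and Srd5a2 one of -0.67 ± 0.21. Of the 15 tested genes on a list of the study's candidates, 4 were higher (Rnf149, Dnajc10, Gm15832 and Tfpi) and 0 lower, and 3 were higher and 1 lower without W1118 and W1154. The study picked its candidates from these samples, so the list is no independent evidence, and Rnf149 was added to it here as the mouse gene named like the human RNF149 that the study examined. Rnf149, a ubiquitin ligase gene, had medians of 191 and 40.9 TPM without overlap and a difference of 2.35 ± 0.18 (limma adjusted p = 7.7e-15), and it shares 707 exonic bases with Gm15832.

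Interferon-induced genes were lower in the Tgm4-rich libraries. Of 12 tested, 0 were higher and 8 lower, with a median of -1.28. Oas1a, an antiviral sensor, had medians of 2.195 and 14.4 TPM and a difference of -1.77 ± 0.30 (limma adjusted p = 4.8e-06), with a transcript 97.6% identical to Oas1g. Irf7, the interferon regulatory factor, had medians of 5.19 and 24.1 TPM. With the summed level of the proliferation list as a covariate 0 of the 12 interferon genes were called, and with the slope over all 73 libraries 1 was, with a median of -0.79. Of 20 proliferation genes, 4 were lower, the replication helicase genes Mcm2, Mcm3, Mcm5 and Mcm6, with a median over the list of -0.81. This count moved with the choice of libraries and covariates, to 13 with Chga under 0.5 TPM, 10 with the highest and lowest 18 libraries, 7 with the seminal vesicle covariate and 0 with the slope or the leukocyte covariate. Mki67 had medians of 2.97 and 5.95 TPM and was not called, at -0.92 ± 0.29. The summed proliferation level was 37.5 to 264 TPM in the rich and 19.5 to 1545 in the poor libraries, with medians of 106.6 and 268, and the highest poor value without W1118 and W1154 was 724. With this covariate 314 of all genes tested were higher and 231 lower, and with the leukocyte covariate 277 were higher and 1.88% lower. Of the 15 leukocyte genes tested, 1 was lower (Jchain, -1.16 ± 0.44), with a median of -0.75 and summed levels of 63.2 to 301 TPM in the rich and 23.9 to 1624 in the poor libraries, where the 1624 was library W4548 and the next highest 422. Of 6 MHC class II genes 0 were called, with a median of -0.84, but 4 were lower with the highest and lowest 18 libraries and 4 with Chga under 0.5 TPM. The leukocyte count became 5 with a pseudocount of 0.1, 4 with the highest and lowest 18 libraries and 0 with the slope. With the leukocyte covariate 3 interferon genes were called.

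Markers of other cells showed few calls. Of 13 smooth muscle genes 0 were called in either direction by limma, with a median of 0.41, and their summed level was 1006 to 3972 TPM in the rich and 185 to 3968 in the poor libraries. Of 10 endothelial, 7 adipocyte and 8 immediate early genes 0 were called, with medians of -0.53, -0.34 and -0.55. Of 12 basal genes 1 was lower (Itgb4, -1.12 ± 0.15), while the defining basal keratin genes Krt5 and Krt14 differed by 0.31 and 0.39 without a call. Of 14 fibroblast and collagen genes 2 were lower, Col1a2 and Col5a2, and 0 without W1118 and W1154 or after median-of-ratios scaling, but 5 with the highest and lowest 18 libraries or the seminal vesicle covariate and 4 with the slope or a pseudocount of 0.1. Of 4 urothelial genes Upk1a was lower, at -1.87 ± 0.38. Of the neuroendocrine list, most of which was under the filter on low values, 2 genes were tested and 0 called, Eno2 at -0.63 and Ncam1 at -0.52. Skeletal muscle genes were lower in 6 of 7 tested, with a median of -2.05, but they rested on few libraries. Tnni2, a fast troponin subunit, was listed at 0.16 to 534 TPM in the poor libraries with a median of 1.12, and was over 10 TPM in 8 of them, against a highest rich value of 1.21. The defining muscle actin gene Acta1 was not called, at 0.60 ± 0.43. The part of these cell markers in the results other than through the covariates named above was not tested.

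**Figure D5:**
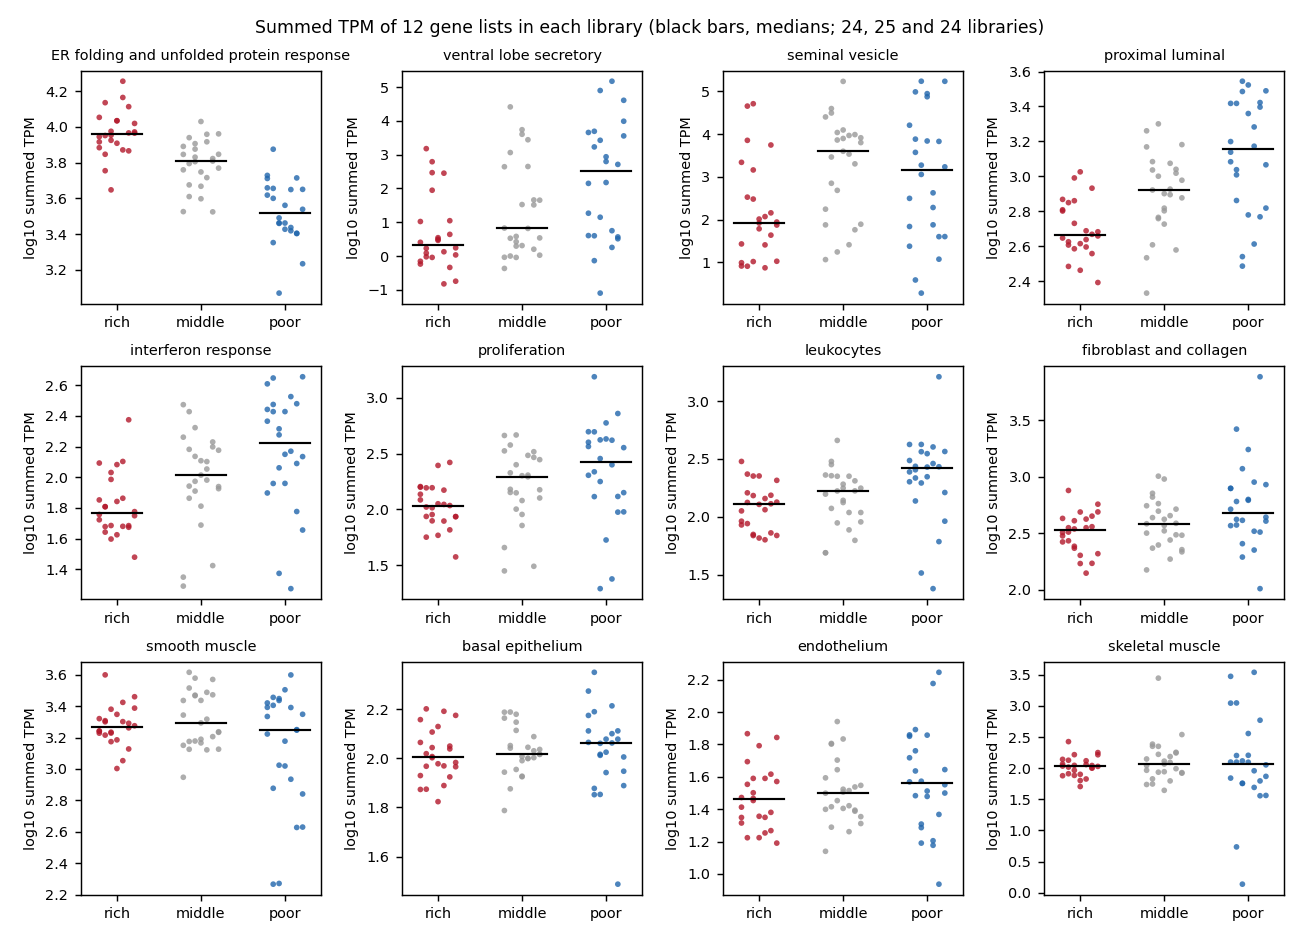
Summed TPM of 12 gene lists (vertical axes, log10) in the 24 Tgm4-rich, 25 middle and 24 Tgm4-poor libraries, each point 1 library and each black bar the median. ER folding genes sum to medians of 9105 and 3279 TPM on the rich and poor sides, whereas the smooth muscle list sums to 1855 and 1773 TPM.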

How the data were processed

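Total RNA of the F2 prostates was depleted of ribosomal RNA and sequenced on an Illumina instrument. The authors called bases with CASAVA 1.8.2, trimmed reads with Trimmomatic, mapped them with Bowtie2 2.2.5 to transcripts of both alleles, which Seqnature built from GRCm38, and quantified genes with RSEM 1.2.20. The values they deposited are TPM, scaled within each library, so depth is unknown and no counting interval was given. Only autosomal genes were compared. Of 45699 genes, 98.8% were matched to GENCODE M21.

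Libraries with Chga under 1 TPM were ranked by Tgm4, and the highest and lowest 24 were compared by limma 3.58.1 with a variance trend on log2(TPM + 1), on genes whose mean was 1 TPM or higher, with Benjamini-Hochberg adjustment over all genes. Tgm4 and Chga were not tested. In the 25 other libraries the slope on Tgm4 was fitted. Library values were compared by two-sided permutation tests with 100000 resamples. The members and lists were chosen with earlier results of these data known. The genes named were Tgm4, 9530053A07Rik and Chga, the 12 called coding genes with the largest and the 12 with the most negative difference without Gm and Rik symbols, the 5 with the highest Spearman rho with Tgm4, and up to 4 members of each list by size, plus members needed to state what did not pass. Further members of the ER folding and other lists were named after their values were seen. Lists were described by counts, and some of their members are not reported here. Nothing in the labels says more of a mouse than its number, so p-values measure the spread between these libraries. Transcripts were called near-identical where BLAST+ 2.17.0 aligned at least 80% of one with 95% identity. Sequences came from RefSeq tables on GRCm38.p6. The limma script was tested on simulated data, in which both sides had the same spread and genes varied independently. The real sides could differ in spread, as for 9530053A07Rik with an SD of 0.25 on the rich and 3.66 on the poor side. That test therefore does not give the error rate in these libraries. Alternatives were another pseudocount, other filters on low values, other scalings, the highest and lowest 18 libraries, a stricter Chga limit, no variance trend, a slope over all 73 libraries, list sums as covariates and libraries left out.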

Additional observations from a re-analysis of the deposited data

How the results depend on the processing

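The 241 genes (1.85% of those tested) higher in Tgm4-rich libraries became 362 (2.79%) when TPM was rescaled leaving out the 20 most abundant genes and 143 (1.10%) with a slope on Tgm4 over all 73 libraries, and under the other alternatives ran from 193 with a mean of at least 5 TPM to 346 with a pseudocount of 0.1. The 500 lower genes (3.85%) became 1117 (8.59%) with a pseudocount of 0.1 and 805 (6.19%) with the highest and lowest 18 libraries. They became 304 (3.88% of the 7844 genes left) with a mean of at least 5 TPM, where fewer genes were tested. With the slope on Tgm4 they became 126 (0.969%), with the proliferation covariate 231 (1.78%) and with the leukocyte covariate 1.88%, and the cause was not tested. Calls that were higher made up 53.2% with the slope, 57.6% with the proliferation covariate and 53.2% with the leukocyte covariate, against 32.5%. The 29 genes (0.223%) rising in the middle libraries became 9 (0.0693%) with rescaled TPM and 0 (0%) with median-of-ratios scaling. In both fits Tgm4 itself kept its deposited TPM, so 2 scales were mixed. For 127 named genes, 1849 of 2012 values under alternatives kept their call or the absence of one, 79 lost a call, 84 gained one, and 0 changed sign where either value was called. Leaving out W78022, whose label is close to that of W7822, could not bear on the contrast, since it is a middle library. It was left out of the middle libraries instead, where 31 genes rose and 0 fell. Without W7822, a rich library, 239 genes were higher and 540 lower. These 2 alternatives were chosen after seeing the data. Depth is unknown in TPM, so how far counting error limits genes of a few TPM could not be computed. No paired analysis was possible because the labels place all libraries in 1 group and give no replicate numbers.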

Other observations

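The genes that tracked Tgm4 were also compared with the 42 libraries with Chga at 1 TPM or more, which entered no comparison. There the median of 9530053A07Rik was 5.38 TPM, that of C1rb 0.41, that of Ren1 0.39 and that of Tgm4 2.54. The X-linked mouse gene Pbsn, which encodes probasin, is listed at medians of 1.64 TPM in the Tgm4-rich and 0.25 in the Tgm4-poor libraries. It was not tested because only autosomal genes were compared. Library W4548, on the poor side, had the highest summed fibroblast and collagen level at 7670 TPM, with 15824 genes at 1 TPM or more.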
